A study of Homo sapiens with 42 samples.

Results

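The comparison described here is that of neil3 HAP1 cells given buthionine sulfoximine (BSO) with neil3 HAP1 cells kept in media alone. It uses 8 of the 42 libraries of the series, 4 with BSO and 4 in media. The members were the libraries whose names carry the neil3 genotype, each BSO library being paired with the media library of the same line and letter (1A, 1B, 2A and 2B). HAP1 is an adherent, near-haploid human line derived from the chronic myeloid leukaemia line KBM-7, and per the series title and design text the neil3 cells are deficient for the DNA glycosylase NEIL3. The BSO group received 200 µM BSO for 48 h, begun after 4 h, and the media group received media alone for the same time. The 4 pairs come from 2 numbered lines with 2 pairs each, and how the lines were made is not given in the sources used here. Wild type HAP1 cells (wt) with the same treatment, 4 BSO and 4 media libraries whose names also carry a letter, serve as the outside comparison, and they share no library with the neil3 groups.

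Glutathione is built from glutamate, cysteine and glycine, and BSO blocks the ligase of its first step, so that treated cells run short of it. It is the main thiol buffer of the cell, and it feeds the peroxidase GPX4, which removes lipid peroxides and holds back ferroptosis. Cells short of glutathione commonly answer through NRF2, a transcription factor that KEAP1 otherwise sends for degradation, and through ATF4, the transcription factor of the amino acid and stress response. NEIL3 removes oxidized bases from single-stranded DNA and unhooks some crosslinks between DNA strands.

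The neil3 BSO libraries held 27.2 M to 28.6 M reads and the neil3 media libraries 27.2 M to 28.7 M, with 18267 to 18462 and 18264 to 18418 genes detected. Levels are the authors' normalized read counts, given in the order 1A, 1B, 2A, 2B. Changes are differences of log2(value + 1), BSO minus media, ± standard error, from 1 fit with a term for each pair. A gene is said to have risen or fallen where limma's Benjamini-Hochberg adjusted p over all 14415 genes tested was under 0.05. The labels name the replicates biological, and nothing further says that they were separate cultures, so that a p here reflects how far these libraries vary, which may be technical variation. Counts per gene of bulk RNA cannot tell fewer cells of a kind from less RNA per cell.

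The RNA of the targeted gene was examined first. NEIL3 (chr4:177309874-177371268, GRCh38) had 711, 528, 714 and 645 normalized counts in neil3 cells with BSO, and 449, 409.6, 614 and 607 in neil3 cells in media. Lettered wt libraries had 655, 649, 640.2 and 619 with BSO and 589.7, 654, 671 and 646 in media, in the order 1.1A, 1.1B, 1.3A, 1.3B. The neil3 libraries of line 1 in media lay below every wt library, those of line 2 lay within the wt range, and a count over a whole gene does not show a short lesion in its coding sequence. NEIL3 RNA was higher with BSO in 4 of 4 neil3 pairs (0.33 ± 0.07, adjusted p = 0.000781), against 0.00 in wt. That call was lost without the pair terms and without line 1, and the difference between the genotypes did not pass (0.33 ± 0.10, unadjusted p = 0.00298).

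Of the 14415 genes tested, 3871 (26.9%) differed between BSO and media, 1820 higher (12.6%) and 2051 lower (14.2%) with BSO. These shares are the background for every count of list members below. The 32 lists were chosen with earlier results of these data known. They held 618 entries for 574 distinct genes, so that some genes are counted on several lists. Most differences were small. Among called genes the median size was 0.18 on the log2 scale, 210 rose and 45 fell by 1.5-fold or more, and 67 rose and 10 fell by 2-fold or more. The direction was the same in all 4 pairs for 3639 of the 3871, and 1699 of all genes tested (11.8%) had groups that did not overlap. The number rests on the pairing, since without the pair terms 444 genes passed (288 higher, 156 lower, so 64.9% of the calls were higher, against 47.0% with the pair terms), with a term for the line in their place 913 passed (60.8% higher), and without the intensity trend 1277 passed (57.8% higher). All 444 genes of the unpaired fit were among the 3871, and between 2619 and 3427 genes passed when 1 pair was left out.

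**Figure D1:**
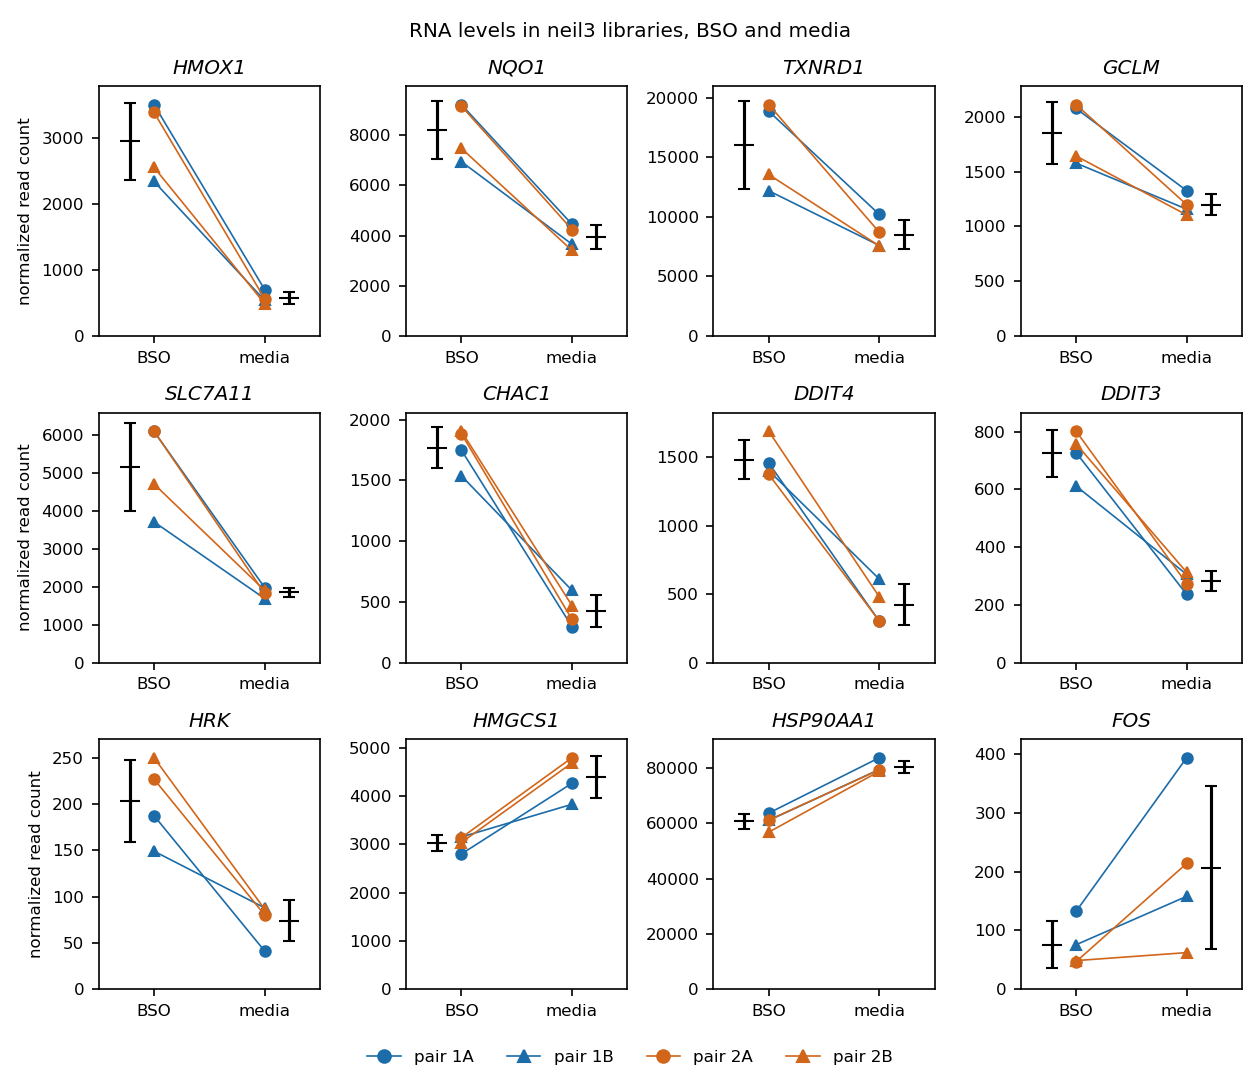
Normalized read counts of 12 genes in neil3 cells with BSO (left) and in media (right), each line joining the libraries of 1 pair, with mean and SD (n = 4 each) in black. The BSO points of HMOX1 (2336 to 3499.6) lie above all media points (489 to 702), those of HSP90AA1 lie below, and those of FOS overlap.

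Of the 3 genes of glutathione synthesis 2 rose and none fell (1 and 0 without the pair terms), with a median change of 0.25. GCLM (chr1:93885199-93909430), the modifier subunit of glutamate-cysteine ligase, had 2075, 1577, 2111 and 1642 normalized counts with BSO and 1326, 1157, 1198 and 1104 in media. Every BSO library lay above every media library, and the change was 0.62 ± 0.05 (adjusted p = 5.02e-10). GCLC (chr6:53497341-53545101), the catalytic subunit that BSO blocks, had 2354, 1965, 1921 and 1659 with BSO and 1869, 1684, 1557 and 1489 in media. It was higher in 4 of 4 pairs (0.25 ± 0.04, adjusted p = 1.87e-05), but the ranges of the groups overlapped, and the call was lost without the pair terms. GSS, the ligase that adds glycine, did not pass (2138, 2229, 2146 and 2135 with BSO, 2169.9, 2154, 2021 and 2069.5 in media; 0.04 ± 0.03, adjusted p = 0.423).

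All 9 tested transporters of cystine and amino acids rose, with a median change of 0.59 beside a median of -0.01 over all genes tested, and all 9 did so without the pair terms and with any pair left out. SLC7A11 (chr4:138164097-138242349), the cystine importer of system xc-, had 6108, 3718, 6116 and 4719 normalized counts with BSO and 1983, 1693, 1827 and 1908 in media. The groups stood well apart and the change was 1.45 ± 0.06 (adjusted p = 1.18e-14). Its membrane partner SLC3A2 changed by 0.57 ± 0.04 (adjusted p = 1.42e-10). The glycine transporter SLC6A9 rose by 1.28 ± 0.05, the neutral amino acid carrier SLC1A4 by 1.15 ± 0.07 and the cationic carrier SLC7A1 by 0.60 ± 0.03. In each of these 5 genes the 4 BSO libraries all lay above the 4 media libraries.

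Among genes that use or break down glutathione, 7 of 28 tested rose and 3 fell (median 0.07), and 3 rose and none fell without the pair terms. CHAC1 (chr15:40953471-40956512), which cleaves glutathione in the cytosol, stood apart from the rest with 1749, 1538, 1885 and 1905 normalized counts with BSO and 296, 594, 355 and 469 in media (2.09 ± 0.11, adjusted p = 6.64e-13). The groups stood well apart, with media highest in pair 1B. Its relative CHAC2 fell slightly (-0.20 ± 0.06, adjusted p = 0.0199), a call lost without the pair terms and without pair 1A (-0.16, adjusted p = 0.15) or 2A (-0.17, adjusted p = 0.0912). The transferase GSTP1 had 42124, 39715, 43706 and 43058 with BSO and 26564, 29827, 31521 and 27610.5 in media (0.55 ± 0.04, adjusted p = 9.09e-11), with no overlap. The reductase GSR, which returns oxidized glutathione to its reduced form, rose by 0.37 ± 0.04 (adjusted p = 8.81e-08, lost without the pair terms). GPX4 itself had 6825, 7268, 6342 and 6542 with BSO and 6086, 7019, 6009.9 and 5685 in media. Its groups overlapped, and its small rise (0.12 ± 0.03, adjusted p = 0.00412) was lost without the pair terms.

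NRF2 target genes moved largely together: 25 of 28 tested rose and none fell, with a median of 0.52, and 17 rose without the pair terms. At least 24 rose with any 1 pair or line left out. The heme oxygenase HMOX1 (chr22:35381096-35394207), which breaks heme into biliverdin, iron and carbon monoxide, had 3499.6, 2336, 3381 and 2550.3 normalized counts with BSO and 702, 538, 563 and 489 in media. The lowest BSO library lay well above the highest media library, and the change was 2.35 ± 0.05 (adjusted p = 1.33e-19). NQO1 (chr16:69709401-69726560), a quinone reductase, had 9221, 6948, 9163 and 7479 with BSO and 4450.4, 3657, 4242 and 3408 in media (1.06 ± 0.03, adjusted p = 7.93e-17). Within each line the A library exceeded the B library for HMOX1 and NQO1, in both treatments, while the rise was of like size in all pairs.

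The highest rise of all named genes was that of AKR1C2, an aldo-keto reductase of steroids and carbonyl compounds, with 63.5, 16.7, 92.2 and 51.6 normalized counts with BSO and 4.02, 2.997, 4.17 and 0.972 in media (3.68 ± 0.35, adjusted p = 3.08e-08). AKR1C1 had 558, 232, 922 and 556 with BSO and 55.3, 46.9, 108 and 84.5 in media (2.84 ± 0.12, adjusted p = 1.34e-14). AKR1C3 had 152, 123, 278 and 207 with BSO and 16.1, 23.0, 70.9 and 30.1 in media (2.56 ± 0.16, adjusted p = 2.98e-11). In all 3 genes the groups did not overlap, but the media levels were low, and reads of these near-identical neighbours may have been split between them, so that the values of single genes are uncertain.

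Other NRF2 targets rose by less. The thioredoxin reductase TXNRD1 had 18880.4, 12198, 19438 and 13562 normalized counts with BSO and 10209, 7599.7, 8712 and 7563 in media (0.89 ± 0.05, adjusted p = 6.57e-13). The ferritin chains that store iron rose together, FTL by 1.16 ± 0.04 (34723, 24664, 34685 and 24395 with BSO, 13873, 12541, 15856 and 10531 in media) and FTH1 by 1.12 ± 0.03 (27468, 24302, 28933 and 25767 with BSO, 12522, 12233, 12428 and 11579 in media), FTH1 being uncertain because of its many pseudogenes. The groups overlapped for none of these 3 genes. OSGIN1, an oxidative stress gene, changed by 1.41 ± 0.05, the heme transporter SLC48A1 by 0.70 ± 0.06 and biliverdin reductase B (BLVRB) by 0.53 ± 0.04. The sulfiredoxin SRXN1, which repairs overoxidized peroxiredoxins, rose by 0.38 ± 0.11 (adjusted p = 0.01), but not without the pair terms, nor without pair 2B (0.26, adjusted p = 0.112). The 3 tested targets that did not pass were the efflux pump ABCC2 (-0.03 ± 0.22), the carbonyl reductase CBR1 (-0.04 ± 0.04) and the UDP-glucose dehydrogenase UGDH (-0.07 ± 0.04).

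Of the 10 regulators of NRF2, 7 rose and 2 fell (3 and 0 without the pair terms). The autophagy receptor SQSTM1, which binds KEAP1, had 5813, 4775, 6097 and 5451 normalized counts with BSO and 3605, 3619, 3727 and 3374 in media (0.62 ± 0.04, adjusted p = 3.93e-11), without overlap. MAFG, a small MAF partner of NRF2, rose by 0.57 ± 0.04 (adjusted p = 2.25e-10). NFE2L2, the gene of NRF2, rose by only 0.18 ± 0.03 (adjusted p = 0.000437) and KEAP1 by 0.11 ± 0.03 (adjusted p = 0.0127). NFE2L3, a relative of NRF2, fell (-0.33 ± 0.07, adjusted p = 0.000717). All 3 calls were lost without the pair terms, and that of KEAP1 also without pair 2B (0.08, adjusted p = 0.0848). Enzymes that supply NADPH, which keeps glutathione and thioredoxin reduced, counted 9 of 14 rises and 4 falls (3 and 0 without the pair terms). The malic enzyme ME1 rose by 0.48 ± 0.04 and the transhydrogenase NNT by 0.35 ± 0.03 (both lost without the pair terms), and transketolase (TKT), of the pentose phosphate pathway, by 0.30 ± 0.03. The NADPH falls numbered 2 without pair 1A, 1B or 2B. Thioredoxin and peroxiredoxin genes counted 8 rises and 3 falls among 20 (median 0.06; 2 and 0 without the pair terms, and 1 fall without pair 1B). The stress gene SESN2, a sestrin that restrains mTORC1, led them (3273, 2806, 3519 and 3307 with BSO, 1333, 1568, 1518 and 1526 in media; 1.12 ± 0.05, adjusted p = 3.54e-14). SESN2 stands on the lists of ATF4 and p53 targets too, and its groups did not overlap.

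ATF4 targets were the list with the largest median change: 31 of 34 tested rose and none fell (median 0.80), and 30 rose without the pair terms. ATF4 itself had 21006, 21596, 19973 and 21688 normalized counts with BSO and 14643, 16805, 14661 and 15755 in media (0.45 ± 0.03, adjusted p = 9.63e-11). DDIT3 (chr12:57516588-57520517), the gene of the stress transcription factor CHOP, had 728, 612, 802 and 758 with BSO and 236, 306, 274 and 313 in media (1.36 ± 0.08, adjusted p = 4.35e-12). DDIT4, an inhibitor of mTORC1, had 1459.9, 1403, 1376 and 1692 with BSO and 302, 610.3, 304 and 480.0 in media (1.86 ± 0.10, adjusted p = 1.47e-12). For all 3 genes every BSO library was above every media library, and pair 1B showed the smallest rise of DDIT3 and DDIT4.

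INHBE (chr12:57455307-57458025), the beta-E subunit of activin, had 159, 114, 205 and 181 normalized counts with BSO and 13.08, 25.0, 21.9 and 32.1 in media (2.82 ± 0.18, adjusted p = 5.2e-11). GDF15 (chr19:18386158-18389176), a circulating stress hormone, had 147, 123, 256 and 193 with BSO and 22.1, 21.0, 53.2 and 20.4 in media (2.65 ± 0.15, adjusted p = 5.7e-12). The media library of pair 2A stood apart for GDF15, but still below every BSO library. The stress cofactor NUPR1 had 53.4, 52.0, 47.7 and 56.6 with BSO and 11.07, 13.98, 5.21 and 12.6 in media (2.26 ± 0.24, adjusted p = 1.36e-07). The asparagine synthetase ASNS changed by 1.63 ± 0.14, the mitochondrial carboxykinase PCK2 by 1.35 ± 0.06, CEBPB, a transcription factor, by 1.22 ± 0.07 and TRIB3, a pseudokinase, by 1.15 ± 0.05. The 3 members that did not pass were ALDH1L2 (0.34 ± 0.30), CBS (-0.08 ± 0.05) and CDKN1A (0.21 ± 0.09). CDKN1A passed without pair 1B (0.32, adjusted p = 0.0196), with edgeR (0.24, adjusted p = 0.0464) and with 1 mean per line (0.25, adjusted p = 0.00677). CBS passed with 1 mean per line (-0.10, adjusted p = 0.0443).

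The RefSeq promoter windows (GRCh38.p14, 250 bases before to 50 after the start) of 4 of these genes are shown because they hold the short letters of the element bound by NRF2 (TGACNNNGC) or of that bound by ATF4 with a C/EBP partner (TGATGNAA), searched on both strands. Capitals mark the matches, and each sequence runs 5′ to 3′ on the strand of its gene: GCLM on the minus strand at chr1:93909381-93909680, TXNRD1 on the plus strand at chr12:104215529-104215828, CHAC1 on the plus strand at chr15:40953221-40953520, and ASNS on the minus strand at chr7:97872359-97872658.
GCLM: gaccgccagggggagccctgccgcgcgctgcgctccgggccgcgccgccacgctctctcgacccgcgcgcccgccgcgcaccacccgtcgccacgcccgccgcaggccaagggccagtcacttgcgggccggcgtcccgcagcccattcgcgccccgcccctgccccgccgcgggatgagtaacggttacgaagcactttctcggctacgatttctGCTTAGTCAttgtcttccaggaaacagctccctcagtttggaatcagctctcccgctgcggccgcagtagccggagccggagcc
TXNRD1: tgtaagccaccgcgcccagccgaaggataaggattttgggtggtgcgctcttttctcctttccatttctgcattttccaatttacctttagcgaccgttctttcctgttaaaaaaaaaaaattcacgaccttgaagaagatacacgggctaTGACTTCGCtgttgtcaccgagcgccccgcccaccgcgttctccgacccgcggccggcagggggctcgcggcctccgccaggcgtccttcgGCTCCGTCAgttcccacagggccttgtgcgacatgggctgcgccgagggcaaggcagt
CHAC1: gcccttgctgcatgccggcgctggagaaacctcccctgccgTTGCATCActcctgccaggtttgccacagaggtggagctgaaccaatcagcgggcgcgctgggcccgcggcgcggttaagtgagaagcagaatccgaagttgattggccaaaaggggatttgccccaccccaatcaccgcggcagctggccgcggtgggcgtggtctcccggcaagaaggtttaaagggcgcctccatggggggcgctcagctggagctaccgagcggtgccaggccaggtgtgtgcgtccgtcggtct
ASNS: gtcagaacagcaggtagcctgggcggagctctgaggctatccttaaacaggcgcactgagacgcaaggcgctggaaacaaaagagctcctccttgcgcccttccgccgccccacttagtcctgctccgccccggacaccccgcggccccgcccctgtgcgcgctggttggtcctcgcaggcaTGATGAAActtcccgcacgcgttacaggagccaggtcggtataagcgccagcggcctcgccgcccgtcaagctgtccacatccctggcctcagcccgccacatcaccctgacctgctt
The NRF2 letters stand once in GCLM, 34 bases before the start on the opposite strand, and at 2 places in TXNRD1. The ATF4 letters stand once in CHAC1 and once in ASNS, 68 bases before the start in ASNS. Only the first listed window of each gene symbol was used, and windows at other starts of a gene were left out. The NRF2 letters occurred in 13.6% of the 27305 symbols with a window and in 15.2% of the 10709 tested genes with a window. The ATF4 letters occurred in 3.67% and 1.65%. Among NRF2 targets 6 of 22 with a window (27.3%) held the NRF2 letters and none held the ATF4 letters. Among ATF4 targets 5 of 28 (17.9%) held the ATF4 letters, namely ATF3, CHAC1, ASNS, SLC3A2 and HERPUD1, and 8 of 28 (28.6%) held the NRF2 letters. Of all genes that rose with BSO 3.66% held the ATF4 letters, and of those that fell 1.102% did. The NRF2 letters were in 17.3% of the rises and 14.2% of the falls, and in 13.7% of the genes that rose by 2-fold or more. Letters of the sterol element (TCACNCCAC) were found in 1 of 18 cholesterol genes, SREBF2, and in 1.15% of the 27305 symbols. A match is a description of letters in these windows and does not show that a factor binds there.

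Enzymes that make serine and one-carbon units, several of which are ATF4 targets, counted 8 rises and no fall among 14 (median 0.14), 5 without the pair terms and 5 without pair 1A. PHGDH, the first enzyme of serine synthesis, had 13107, 12629.5, 13035 and 13292 normalized counts with BSO and 7463, 8210.1, 7835 and 7862 in media (0.73 ± 0.03, adjusted p = 2.13e-14). PSAT1 and PSPH, which complete the pathway, rose by 0.85 ± 0.04 and 0.60 ± 0.04, and the mitochondrial folate enzyme MTHFD2 by 0.58 ± 0.05. The groups of these 4 genes did not overlap. In transsulfuration, the route from methionine to cysteine, CTH, which releases cysteine from cystathionine, had 2209, 1731, 2140.1 and 1979 with BSO and 850.0, 1003, 811 and 878 in media (1.18 ± 0.06, adjusted p = 1.86e-12). CBS, the step before it, did not pass (1209.9, 1483, 886 and 1231 with BSO and 1232, 1428, 901 and 1563 in media; -0.08 ± 0.05, adjusted p = 0.227). It passed with 1 mean per line (-0.10, adjusted p = 0.0443) and turned without line 2 (0.0138). In the list 2 of 9 members rose and 2 fell (1 and 0 without the pair terms, and no fall without line 1).

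Cytosolic tRNA synthetases, which charge tRNAs with amino acids, did not move as 1 block: 11 of 20 rose and 5 fell (8 and 0 without the pair terms, and 2 falls without pair 1A). The glycyl-tRNA synthetase GARS1 had 17884, 15261, 17344 and 16179 normalized counts with BSO and 11399.7, 11770.2, 10727 and 11077 in media (0.57 ± 0.04). SARS1, for serine, and WARS1, for tryptophan, rose by 0.56 ± 0.04 and 0.54 ± 0.03, and CARS1, for cysteine, by 0.43 ± 0.04. At the other end HARS1, for histidine, changed by -0.21 ± 0.03 (adjusted p = 5.42e-05, lost without the pair terms).

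**Figure D2:**
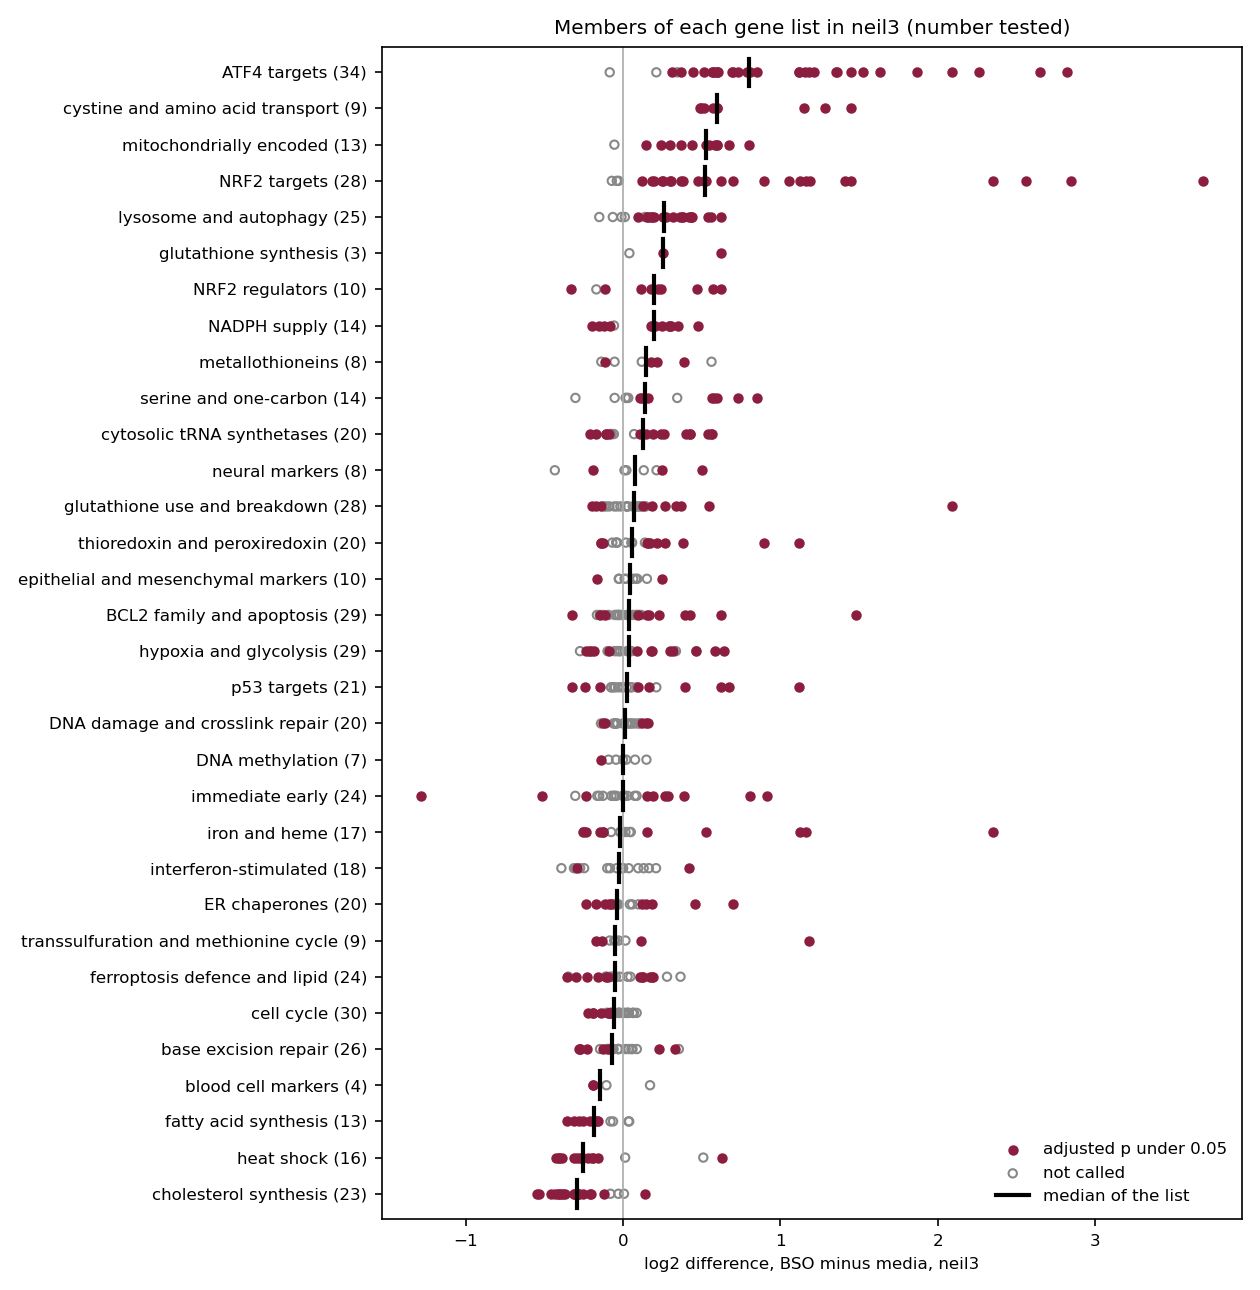
Log2 difference between BSO and media in neil3 cells for each tested member of 32 gene lists, ordered by the median of the list (black bar), with genes at an adjusted p under 0.05 filled. ATF4 targets (median 0.80) lie at the top and cholesterol synthesis (median -0.29) at the bottom.

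Genes of cell death gave a mixed picture. In the BCL2 and apoptosis list 8 of 29 tested rose and 3 fell (median 0.04), 2 and 1 without the pair terms, 5 rose without pair 1A, and 1 fell without pair 2A. The shares, 27.6% risen and 10.3% fallen, stood beside 12.6% and 14.2% of all genes tested. The largest rises were those of the BH3-only genes HRK, PMAIP1, BMF and BBC3, whose products bind and restrain survival members of the BCL2 family. BID, BAD, BIK and BCL2L11, BH3-only genes of the same list, were not among these largest rises. HRK (chr12:116856144-116881441) had 188, 149, 227 and 250.1 normalized counts with BSO and 41.2, 87.9, 80.3 and 86.5 in media (1.48 ± 0.15, adjusted p = 6.8e-08). Its groups did not overlap, and the rise was smallest in pair 1B (0.76) and largest in pair 1A (2.16), where the media library was low. PMAIP1 (NOXA) had 954, 804, 881 and 827 with BSO and 525, 606, 539.9 and 577 in media (0.62 ± 0.06, adjusted p = 3.87e-08). BMF (0.43 ± 0.07, adjusted p = 8.48e-05) and BBC3, the gene of PUMA (0.39 ± 0.07, adjusted p = 0.000193), also rose, both calls being lost without the pair terms. The survival gene MCL1 fell slightly (-0.15 ± 0.03, adjusted p = 0.000574, lost without the intensity trend), as did the death receptor FAS (-0.33 ± 0.12, adjusted p = 0.0419), whose call was lost without the pair terms and with any 1 pair left out (-0.36 to -0.30, adjusted p = 0.0872 to 0.118). BCL2, another survival gene, rose (0.23 ± 0.06, adjusted p = 0.00629), a call lost without the pair terms and without pair 1A (0.18, adjusted p = 0.0801). Of 21 p53 targets 6 rose and 3 fell (median 0.02; 2 and 0 without the pair terms). SESN2, GADD45A (0.67 ± 0.08, lost without the pair terms), PMAIP1 and BBC3 showed the largest rises, and SESN2 is also a member of the ATF4 list. MDM2, which marks p53 for degradation, did not pass (-0.08 ± 0.04). The p53 falls numbered 1 without pair 1A, 1B or 2A.

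Among 24 ferroptosis genes 6 rose and 6 fell (median -0.05), 0 and 1 without the pair terms, and 3 fell without pair 1A or 1B. Rises and falls were each 25% of the list, while of all genes tested 12.6% rose and 14.2% fell. SCD, which makes monounsaturated fatty acids, had 17357, 19552, 16983 and 17262 normalized counts with BSO and 21621, 24279.5, 22173 and 22839 in media (-0.35 ± 0.03, adjusted p = 2.51e-09), with no overlap. ACSL4, which readies polyunsaturated fatty acids for membranes, had 1299.6, 1234, 1082 and 1042 with BSO and 1605, 1490.4, 1348 and 1277 in media (-0.30 ± 0.04, adjusted p = 3.11e-06). It was lower in 4 of 4 pairs, although the groups overlapped and the call was lost without the pair terms. AIFM2 (FSP1), which regenerates ubiquinol apart from glutathione, changed by 0.19 ± 0.04 (adjusted p = 0.000888, lost without the pair terms), and PTGS2, a common marker of ferroptosis, did not pass (0.36 ± 0.25). In iron handling, 5 of 17 genes rose and 5 fell (4 and 0 without the pair terms). TFRC, the transferrin receptor, had 11211, 9636, 10726 and 9468 with BSO and 11789, 9886, 11833 and 11357 in media. Its fall was small (-0.13 ± 0.03, adjusted p = 0.00507) and was lost without the pair terms and without pair 2B (-0.08, adjusted p = 0.0513).

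Genes of lipid synthesis decreased together. Of 23 tested genes of the cholesterol synthesis list 19 fell and 1 rose, with a median of -0.29, and 13 fell without the pair terms. HMGCS1 (chr5:43287470-43313412), which makes the precursor of mevalonate, had 2802, 3154, 3140.2 and 3039.5 normalized counts with BSO and 4268, 3833, 4798 and 4691 in media (-0.53 ± 0.04, adjusted p = 1.82e-09). INSIG1, the sterol sensor partner, had 1079.8, 1353, 1015 and 1026 with BSO and 1671, 1785, 1596 and 1452 in media (-0.55 ± 0.04, adjusted p = 1.53e-09). In both genes every BSO library lay below every media library. The exception that rose was the kinase PMVK (0.14 ± 0.04, adjusted p = 0.018; 0.13 without pair 1A or 2A, adjusted p = 0.0871 and 0.0719), and SREBF2, the gene of the master regulator SREBP2, did not pass (-0.03 ± 0.03). Of 13 genes of fatty acid synthesis 9 fell and none rose (median -0.18; 2 fell without the pair terms), among them ELOVL6, an elongase (-0.31 ± 0.03, adjusted p = 2.34e-07), and FASN (-0.25 ± 0.03) and SREBF1 (-0.28 ± 0.03), both lost without the pair terms.

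Genes of the heat shock list, which also holds the mitochondrial chaperonins HSPD1 and HSPE1, fell as well, 13 of 16 tested, with 1 rise and a median of -0.26 (4 falls and 1 rise without the pair terms, 13 falls with any pair left out). HSP90AA1, an inducible chaperone of the HSP90 class, had 63745, 61110.4, 61212 and 56842 normalized counts with BSO and 83809.9, 79542, 79461 and 78891 in media (-0.41 ± 0.03, adjusted p = 1.5e-09). HSPH1 (-0.43 ± 0.03) and HSPA8 (-0.41 ± 0.03), chaperones of the HSP110 and HSP70 families, fell by similar amounts, both calls being lost without the pair terms. In both genes the B library of each line was the higher in both treatments. HSPA1A and HSPA1B, near-identical copies whose reads may be split, changed by -0.39 ± 0.04 and -0.31 ± 0.05, calls that were lost without the pair terms. The exception was DNAJB4, a co-chaperone, with 967, 838, 949 and 989 with BSO and 477, 636, 541 and 808 in media (0.63 ± 0.08, adjusted p = 1.76e-06), a call lost without the intensity trend.

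Chaperones of the endoplasmic reticulum split: 5 of 20 rose and 5 fell (2 and 0 without the pair terms, 3 and 3 without pair 1A, 3 falls without pair 1B or 2A). Each way was 25% of the list, beside 12.6% risen and 14.2% fallen of all genes tested. HERPUD1, of the degradation pathway there, had 2445, 2341, 2478 and 2549 normalized counts with BSO and 1299.7, 1801, 1308 and 1694 in media (0.70 ± 0.06, adjusted p = 3.78e-09). XBP1, a transcription factor of the unfolded protein response, changed by 0.46 ± 0.04 (adjusted p = 1.17e-08). HSPA5 (BiP), the chief chaperone of that compartment, changed by -0.17 ± 0.03 (adjusted p = 0.000264, lost without the pair terms). HERPUD1 and XBP1 thus rose while HSPA5 fell, each in 4 of 4 pairs. Of 8 metallothionein and zinc genes 3 rose and 1 fell (0 and 0 without the pair terms, 2 rises without pair 2B, no fall without pair 2A), MT2A by 0.39 ± 0.04, lost without the pair terms and uncertain because the metallothioneins share sequence.

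Genes of lysosomes and autophagy formed a broad, moderate rise: 20 of 25 tested rose and none fell (median 0.26), 10 without the pair terms. Besides SQSTM1, the mTORC1 and TFE3 regulator FLCN had 1054, 1059, 1101 and 1114 normalized counts with BSO and 732, 795, 722 and 733 in media (0.54 ± 0.05, adjusted p = 5.32e-09), without overlap. Its partner FNIP1 changed by 0.44 ± 0.06 (adjusted p = 4.88e-06), the protease CTSD by 0.38 ± 0.03 (adjusted p = 3.45e-09), and TFE3, a transcription factor of lysosomal genes, by 0.36 ± 0.03 (adjusted p = 9.59e-09).

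Of the 13 mitochondrially encoded protein genes, subunits of the respiratory chain and the ATP synthase, 12 rose and none fell (median 0.52), 7 without the pair terms, 9 without pair 1A and 8 without pair 1B. COX1 had 208500.0, 203533, 161593 and 185357 normalized counts with BSO and 99313, 117024, 110506 and 107021 in media (0.80 ± 0.05, adjusted p = 4.71e-11), and COX2 rose by 0.67 ± 0.05 (adjusted p = 5.8e-10). COX3 did not pass (111767, 118472, 90558 and 103463 with BSO and 95994, 114494, 115705 and 113756 in media; -0.06 ± 0.06, adjusted p = 0.507). Its change was -0.25 in line 2 alone (adjusted p = 0.00409) and 0.13 in line 1 alone (adjusted p = 0.00237), each fitted on 2 pairs. COX3 did not pass the test of the difference between the lines. These genes took 3.30%, 3.35%, 2.68% and 3.11% of reads with BSO and 1.99%, 2.32%, 2.34% and 2.31% in media. The share was higher with BSO in 4 of 4 pairs (mean 3.11% ± 0.305 with BSO, 2.24% ± 0.170 in media, SD, n = 4 each; exact two-sided sign-flip permutation p = 0.125, the smallest 4 pairs allow). The part of this share in the other changes was not tested.

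**Figure D3:**
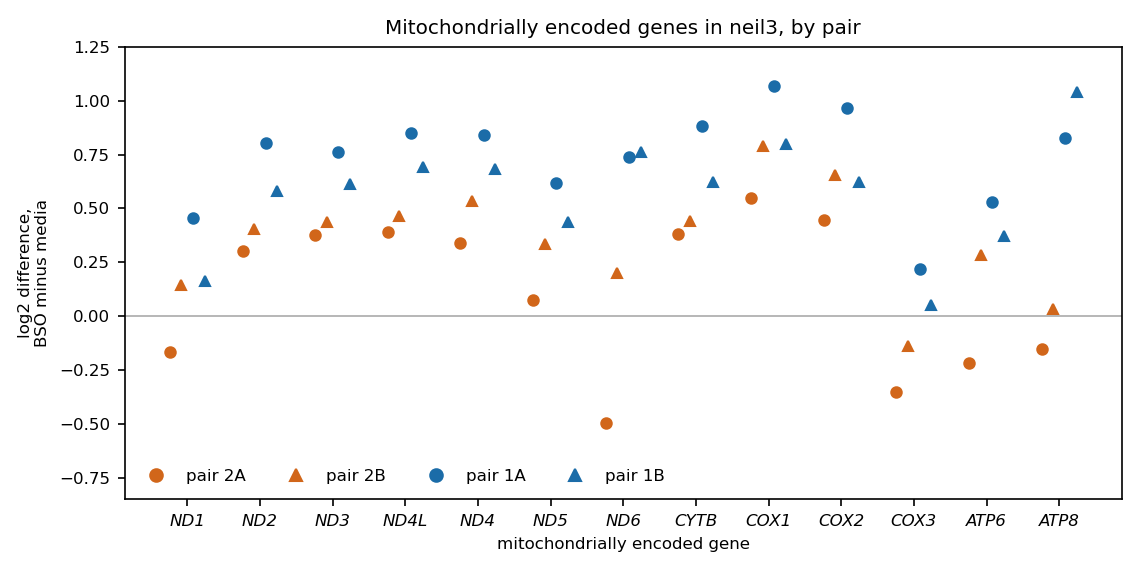
Log2 difference between BSO and media for each mitochondrially encoded gene in each neil3 pair, line 2 (orange) left of line 1 (blue). The line 2 pairs have medians of 0.30 (2A) and 0.41 (2B), the line 1 pairs 0.81 (1A) and 0.62 (1B).

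The size of the BSO change differed between line 2 and line 1 for 3 of 14415 genes (0.0208%), namely ATP8, ND6 and CCZ1B. ATP8, a mitochondrially encoded subunit of ATP synthase, had 4015 and 4079 normalized counts with BSO and 4466 and 3982 in media in line 2. In line 1 it had 5144 and 7600.1 with BSO and 2901 and 3688 in media. Its change by pair was -0.15 and 0.03 in line 2 and 0.83 and 1.04 in line 1 (line 2 minus line 1, -0.99 ± 0.08, adjusted p = 1.54e-06). ND6, a subunit of complex I, gave -0.90 ± 0.13 (adjusted p = 0.0118), and CCZ1B, of a lysosomal trafficking complex, 0.82 ± 0.13 (adjusted p = 0.0325). Each is uncertain: ATP8 overlaps ATP6, ND6 lies opposite to the other mitochondrial genes while the strand setting of the counting is not given, and CCZ1B has a near-identical copy, CCZ1. For all 13 mitochondrially encoded genes the signed change was lower in line 2 than in line 1 (median difference -0.34, from -0.99 to -0.24), 2 of them past the threshold, beside a median of -0.0033 over all genes. With 1 pair left out, between 9 and 36 genes passed this test, and no gene did without the pair terms.

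Immediate early genes gave 7 rises and 3 falls among 24 (median -0.0007; 1 and 0 without the pair terms). EGR2, a zinc finger factor, changed most among the rises (0.92 ± 0.28, adjusted p = 0.0185). It had 38.3, 21.6, 44.6 and 51.6 normalized counts with BSO and 7.04, 9.99, 28.1 and 64.1 in media. EGR2 was higher in 3 of 4 pairs and lower in 2B (-0.31). Its call was lost without pair 1A (0.46, adjusted p = 0.227) or 1B (0.88, adjusted p = 0.0605). The call was also lost without the pair terms, without line 1 and with edgeR. ATF3, an ATF4 target as well, had 608, 562, 795 and 743 normalized counts with BSO and 313, 373, 444 and 412 in media (0.81 ± 0.06, adjusted p = 7.32e-10), without overlap. FOS (chr14:75278828-75282230) had 132, 75.5, 46.6 and 48.6 with BSO and 393, 158, 214 and 62.2 in media (-1.29 ± 0.18, adjusted p = 8.72e-06). It was lower in 4 of 4 pairs, though in 2B by only -0.35, its groups overlapped, and the call was lost without the pair terms. IER3 changed by -0.52 ± 0.10 (adjusted p = 0.000604, lost without the pair terms), while EGR1 did not pass (0.07 ± 0.09). Of 18 tested interferon-stimulated genes 1 rose, the signal transducer STAT2 (1658, 1630.1, 1485 and 1581 with BSO and 1196, 1273, 1078 and 1209.7 in media; 0.42 ± 0.04, adjusted p = 1.75e-08), and 1 fell, the surface protein BST2 (-0.29 ± 0.03, adjusted p = 2.59e-07), while 2 rose without pair 1A and 2 fell without pair 2A.

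In lists of DNA repair the share called lay near or below the 26.9% of all genes. In base excision repair 2 of 26 genes rose and 6 fell (median -0.07; 0 and 1 without the pair terms). NEIL2, a glycosylase for oxidized bases, had 309, 343, 343 and 339 normalized counts with BSO and 344, 405, 426 and 451 in media (-0.28 ± 0.07, adjusted p = 0.00263), a call lost without the pair terms and without line 2. NEIL1 did not pass (952, 1018, 899 and 1148 with BSO and 969.8, 988, 881 and 1003 in media; 0.06 ± 0.05, adjusted p = 0.357). TDG, which removes thymine and oxidized methylcytosine, changed by -0.27 ± 0.03 (lost without the pair terms) and the repair polymerase POLB by -0.27 ± 0.06 (lost without the pair terms and without line 1). Among 20 genes of crosslink repair and damage signalling 3 rose and 2 fell, with 0 and 0 without the pair terms, 1 rise without pair 1B and no fall without pair 1B, 2A or 2B. BRCA1 (0.12 ± 0.03, adjusted p = 0.0101) and the damage kinase ATM (0.14 ± 0.04, adjusted p = 0.0141) were not called without pair 1B (0.10 and 0.13, adjusted p = 0.0883 and 0.0756), nor were BRCA1 without 1A (0.11, adjusted p = 0.0733) and ATM without 2A (0.10, adjusted p = 0.138). Of 7 DNA methylation genes 1 fell, the methyltransferase DNMT3B (-0.14 ± 0.05, adjusted p = 0.0231), but not without pair 2A (-0.09, adjusted p = 0.193) or 2B (-0.12, adjusted p = 0.083), and 1 rose without pair 2B.

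Of 30 cell cycle genes none rose and 8 fell (median -0.06), 2 without the pair terms and 4 without pair 1A or 2A, and 2 rose without pair 2A. The falls made 26.7% of the list, while of all genes tested 14.2% fell and 12.6% rose. Called in either direction were 26.9% of all genes tested, a share near that of this list. The mitotic cyclin CCNB1 had 8952, 8292, 8918 and 8228 normalized counts with BSO and 10383, 9769, 10489 and 9457 in media (-0.22 ± 0.03, adjusted p = 2.03e-06). AURKA, a mitotic kinase, changed by -0.19 ± 0.03 (adjusted p = 2.89e-05). The groups of both genes did not overlap, but the changes were small, and the proliferation marker MKI67 did not pass (-0.10 ± 0.04). It passed without pair 1B (-0.16, adjusted p = 0.00462), without line 1 (-0.21, adjusted p = 0.00349) and with 1 mean per line (-0.10, adjusted p = 0.0141). Without line 2 its change was 0.014. Of 29 hypoxia and glycolysis genes 8 rose (27.6%) and 5 fell (17.2%), beside 12.6% and 14.2% of all genes tested. Without the pair terms 2 rose and 1 fell. VEGFA, a growth factor for blood vessels, led with 2356, 2249, 2489 and 2653 with BSO and 1451, 1671, 1423 and 1724 in media (0.64 ± 0.04, adjusted p = 1.83e-10). The stress gene NDRG1 rose by 0.58 ± 0.14 and the glucose carrier SLC2A3 by 0.46 ± 0.09, both lost without the pair terms.

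Outside the lists, the largest rises that followed the rule for named genes were ECM2, BEST1, ARHGAP9, MYH15, DDR2 and RAPGEF3. ECM2, an extracellular matrix protein, had 243, 147, 156 and 97.2 normalized counts with BSO and 28.2, 40.0, 10.4 and 23.3 in media (2.68 ± 0.22, adjusted p = 2.51e-09). BEST1, a chloride channel, had 59.5, 50.02, 68.4 and 87.3 with BSO and 10.1, 18.0, 12.5 and 13.6 in media (2.21 ± 0.22, adjusted p = 5.87e-08). DDR2, a collagen receptor kinase, had 149, 125, 146 and 128 with BSO and 43.3, 35.0, 29.2 and 50.5 in media (1.79 ± 0.15, adjusted p = 3.18e-09). All 4 BSO libraries exceeded all media libraries in these genes, although the levels were low. ARHGAP9 (2.19 ± 0.22), MYH15 (2.04 ± 0.15) and RAPGEF3 (1.78 ± 0.24) rose likewise, with adjusted p of 8.71e-08, 4.43e-10 and 4.65e-06. BEST1 overlaps FTH1 in position, RAPGEF3 overlaps SLC48A1, and ARHGAP9 overlaps MARS1. The strand setting of the counting is not given, so the values of BEST1, RAPGEF3 and ARHGAP9 are uncertain. The part of reads from the overlapping genes was not tested.

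The largest falls were less even. MAGED4 had 67.6, 66.7, 71.5 and 139 normalized counts with BSO and 533, 77.9, 475 and 300.2 in media (-1.75 ± 0.26, adjusted p = 1.76e-05). Its groups overlapped, pair 1B hardly differed, the call was lost without the pair terms and without the intensity trend, and MAGED4B is a near-identical copy. GFRA1, a co-receptor of glial growth factors, had 91.8, 6.87, 188 and 46.6 with BSO and 196, 21.0, 325 and 77.7 in media (-1.02 ± 0.15, adjusted p = 1.33e-05). The A libraries were the higher within each line, the groups overlapped, and the call was lost without the pair terms. UCP2, a carrier of the inner mitochondrial membrane, had 424, 496, 477 and 461 with BSO and 659.9, 821, 673 and 754 in media (-0.64 ± 0.05, adjusted p = 4.76e-09). Of the 15 largest falls UCP2 was the only one called under every alternative run. TNMD (-0.70 ± 0.09) and DHRS2 (-0.86 ± 0.17) were lost only without the pair terms, and CBWD3, FAM156A and RPS23P8, which have near-identical copies, are uncertain. FAM156A rested on pair 1B (-0.77 with it, -0.19 without it, adjusted p = 0.613), RPS23P8 on pairs 1B and 2B (-0.52 and -0.51 without them, adjusted p = 0.0987 and 0.109), and HACD4, a fatty acid dehydratase, on pair 1A (-0.54 without it, adjusted p = 0.0502).

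**Figure D4:**
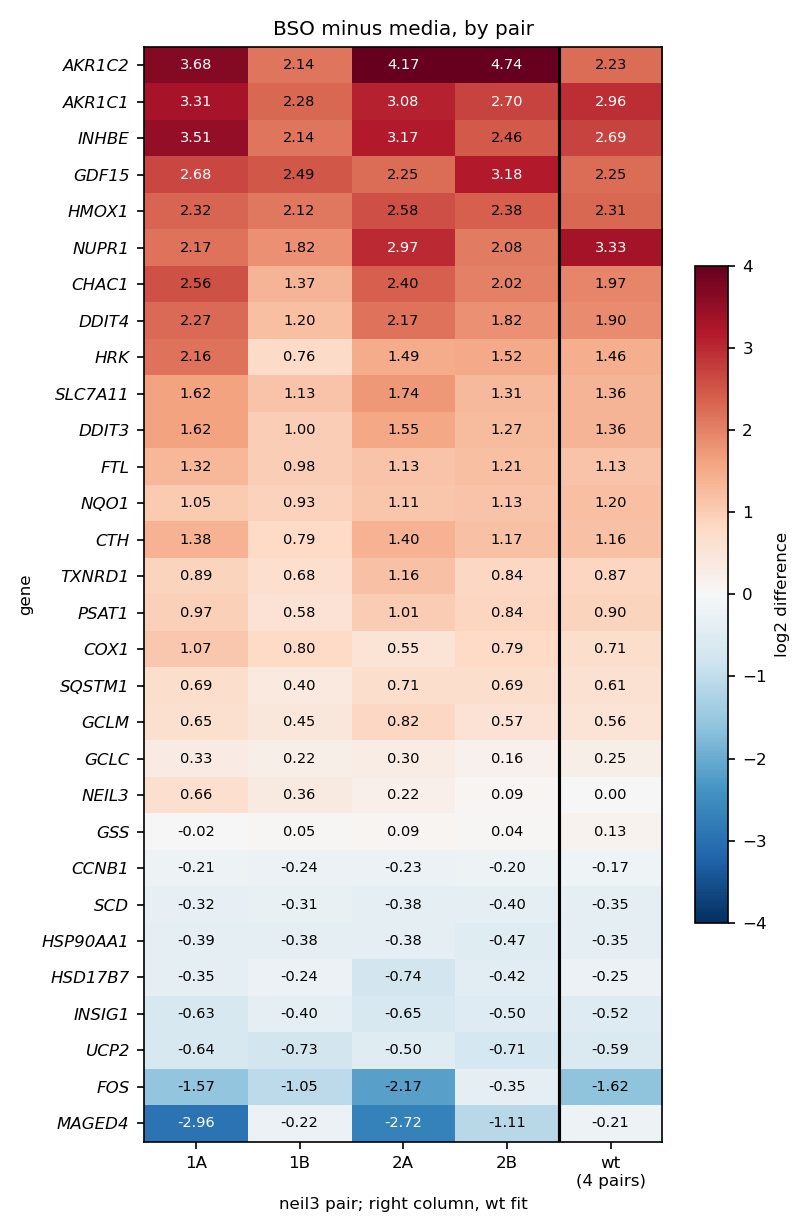
Log2 difference between BSO and media of 30 named genes in each neil3 pair (first 4 columns), beside the fitted difference in 4 wt pairs (last column). Rises of HMOX1 (2.12 to 2.58) and falls of HSP90AA1 (-0.47 to -0.38) are even over the pairs, whereas MAGED4 runs from -2.96 to -0.22.

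Whether neil3 cells answered BSO otherwise than wt cells was tested as a difference of the 2 changes. No gene of 14401 (0%) passed with limma, the smallest adjusted p being 0.55, and 510 genes had an unadjusted p under 0.05. edgeR's quasi-likelihood test on the recovered reads also called 0, with 518 at an unadjusted p under 0.05. HMOX1 changed by 2.35 ± 0.05 in neil3 and 2.31 ± 0.07 in wt (difference 0.04 ± 0.10), SLC7A11 by 1.45 ± 0.06 and 1.36 ± 0.06 (difference 0.10 ± 0.11), CHAC1 by 2.09 ± 0.11 and 1.97 ± 0.12 (difference 0.12 ± 0.20), and HMGCS1 by -0.53 ± 0.04 and -0.56 ± 0.06 (difference 0.03 ± 0.09). Each of these differences was close to its standard error or smaller. Of the 20 core genes 2 had an unadjusted p under 0.05, NEIL3 itself (0.33 ± 0.10, unadjusted p = 0.00298) and NQO1 (-0.14 ± 0.06, unadjusted p = 0.0278), and neither passed the adjustment. The median standard error of a difference was 0.07, so small differences may have gone unseen. Large ones did not pass either where the error was wide, as for MAGED4 (-1.54 ± 0.38) and AKR1C2 (1.46 ± 0.67). A p that misses the threshold does not show that the genotypes respond alike. The genes with the smallest unadjusted p were PI15 (difference 0.33 ± 0.06, unadjusted p = 4.36e-05), NPIPB5, of a family of near-identical copies (-0.34 ± 0.07, unadjusted p = 7.64e-05), and EGR1 (0.79 ± 0.18, unadjusted p = 0.000262).

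In wt 1385 genes rose (9.63%) and 1507 fell (10.5%) of 14381 tested. Of the neil3 rises 61.4% rose in wt too, and of the wt rises 80.6% rose in neil3 (1117 genes). Of the neil3 falls 54.0% fell in wt, and of the wt falls 73.5% fell in neil3 (1108 genes). No gene was called in opposite directions. Across the 14231 genes tested in both, the log2 changes correlated with r = 0.71, a description over genes, which are not independent. The wt counts moved with the pairs: 1282 genes passed without wt 1.1A, 1753 without 1.3A, 4017 without 1.1B and 1590 without 1.3B. By list, ATF4 targets rose in 31 members in neil3 and 32 in wt, NRF2 targets rose in 25 and 23, cholesterol genes fell in 19 and 19, and heat shock genes fell in 13 and 11.

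**Figure D5:**
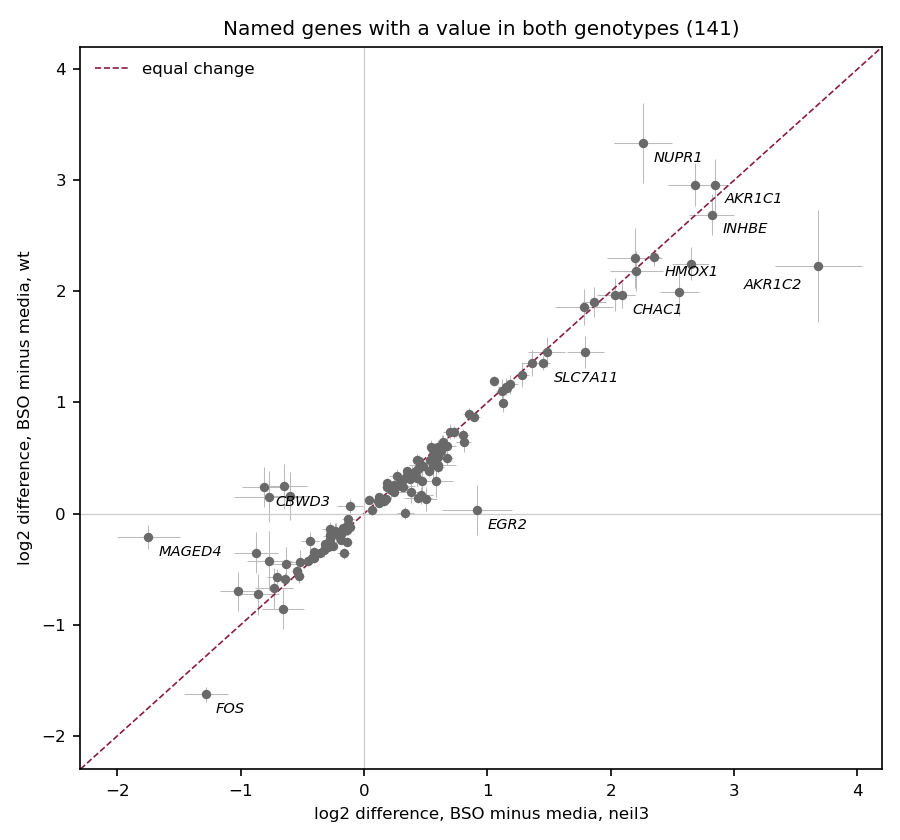
Log2 difference between BSO and media of 141 named genes in neil3 (horizontal) and in wt (vertical), with standard errors. The direction was the same for 136 of the 141, and AKR1C2 (3.68 in neil3, 2.23 in wt) and MAGED4 (-1.75 in neil3, -0.21 in wt) lie farthest from the line of equal change, with no difference past the threshold.

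Markers of cell lineages served to check the label. Of 15 blood cell markers 11 were in the table and 4 passed the filter on low values: TAL1 (685 to 1531 normalized counts over the 8 neil3 libraries), GATA2 (1703 to 2240), KIT (307 to 622) and LYL1 (4.96 to 41.3). The pan-leukocyte marker PTPRC (CD45) was at 0 to 2.07 and the erythroid factor GATA1 at 0 to 2.07, so both were absent or nearly so. The mesenchymal gene VIM (11763 to 18296) and the neural and stem cell gene SOX2 (28674 to 42427) were high, while the epithelial cadherin CDH1 was at 0 to 2.01. Summed over the tested members, blood cell markers stood at 3142 to 3563 with BSO and 3569 to 3952 in media, neural markers at 38708 to 46501 and 31744 to 39609, and epithelial and mesenchymal markers at 21626 to 33176 and 21249.8 to 32475. The blood cell sum was lower in every BSO library than in any media library, but only just (at most 3563 against at least 3569). The groups of every tested blood cell marker overlapped. The ranges of the other sums overlapped. In the blood cell list 2 of 4 fell, KIT and GATA2 (0 without the pair terms, 1 without pair 1A, 2A or 2B). Among the neural markers 2 of 8 rose, PAX6 (0.50 ± 0.09) and SOX2 (0.24 ± 0.04), and 1 fell, NES (-0.19 ± 0.03), with 0 and 0 without the pair terms. In the epithelial and mesenchymal list 1 of 10 rose and 1 fell (0 and 0 without the pair terms). The rise was that of FN1 (0.25 ± 0.03), and the fall that of COL1A1 (-0.16 ± 0.05), which was not called without pair 1A (-0.16, adjusted p = 0.0747) or 2A (-0.11, adjusted p = 0.199). The part of these markers in the other results was not tested.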

How the data were processed

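RNA was measured by sequencing of total RNA in 42 HAP1 libraries, of which 8 neil3 and 8 lettered wt libraries were compared here. Per the submitters' processing notes, Trim Galore, HISAT2, SAMtools, featureCounts and DESeq2 were used with GRCh38/hg38. Nothing used here gives their roles, versions or the strand setting. The deposited table holds the authors' normalized read counts, a signal per gene that is not whole. Dividing by the value of 1 read gave whole reads for 100% of values (relative tolerance 1e-06), and these served only for the edgeR 4.0.16 and DESeq2 1.42.0 alternatives. In 12 libraries the value of 1 read was too near 1 for a check of this recovery on the file to tell.

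Depth was 27.2 M to 30.9 M reads per library, and 0.868% to 1.25% of reads fell on the 9667 entries without a symbol, which were left out. Values entered limma 3.58.1 (R 4.3.3) as log2(value + 1), with an intensity trend, for genes with a mean of 10 or more, with Benjamini-Hochberg adjustment over all genes tested and a threshold of 0.05. A fold on this scale understates changes of low genes. The pairing comes from the rule of the comparison. It was checked over the 12301 genes with a mean of 50 or more. Deviations of libraries of the same line and letter correlated at 0.84 to 0.87, and each BSO library correlated best with its own media library. Those of the same line and other letter already correlated at 0.58 to 0.66. Within a line, the difference of A and B correlated between treatments at 0.59 in line 1 and 0.51 in line 2. The test script was tried on simulated data.

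The named genes (141) are the 15 highest rises and 15 largest falls (averaging at least 50 in the group that was higher, with 1 direction in all pairs), up to 4 called genes per list with the largest change, 20 core genes, and genes called between lines. A further 31 list members were named for their role after their values were seen. Members, the 32 lists and the rules were chosen with earlier results of these data known. Alternatives were other pseudocounts, filters, scalings, tools, blocks and libraries left out. Promoter windows are RefSeq's, the first listed for each gene symbol. Some items are not reported here.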

Additional observations from a re-analysis of the deposited data

Results flagged for a closer look

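In 14 of 282 groups of 4 values of the named genes, 1 library stood apart from the other three by Dixon's gap criterion, and chance gives about 1 in 20. With BSO, the high ones were MAGED4 in 2B (139, the others 66.7 to 71.5 normalized counts), SRXN1 in 2B (196, the others 161 to 167), SCD in 1B (19552, the others 16983 to 17357), BRCA1 in 1A (2787, the others 2423 to 2452) and GSS in 1B (2229, the others 2134 to 2146). The low ones with BSO were SLC6A9 in 1B (1906, the others 2394 to 2485) and NEIL2 in 1A (309, the others 339 to 343). In media, the high ones were GDF15 in 2A (53.2, the others 20.4 to 22.1), FAM156A in 1B (129, the others 24.0 to 36.2), HSP90AA1 in 1A (83810, the others 78891 to 79542), GPNMB in 2B (37.9, the others 25.0 to 27.2), FLCN in 1B (795, the others 722 to 733) and NDRG1 in 1B (66.9, the others 59.4 to 60.5). HRK was low in 1A in media (41.2, the others 80.3 to 87.9). Of these genes, FAM156A lost its call without 1B, BRCA1 without 1A or 1B, SRXN1 without 2B, and GPNMB without 1A or 2A.

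The change with BSO differed between neil3 line 2 and line 1 by a test of the difference itself for CCZ1B (0.82 on the log2 scale), ATP8 (-0.99) and ND6 (-0.90).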

How the results depend on the processing

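The number of genes that differed between BSO and media in neil3 cells (3871) rests on the pairing. Without the replicate block 444 genes passed (288 higher, 156 lower), and with a line term in its place 913 (555 higher, 358 lower). Without the intensity trend 1277 passed (738 higher, 539 lower), and with DESeq2 on recovered reads 2289 (1152 higher, 1137 lower). Without line 1, 1677 passed (879 higher, 798 lower). Leaving out 1 pair each gave 2619 to 3427 genes (1249 to 1671 higher, 1370 to 1756 lower). The other settings gave between 2710 genes, with no filter on low values, and 4463, with 1 mean per line. Of the 138 named genes called, 67 kept their call and direction under every alternative run, and 70 of the 141 named lost it without the replicate block. The cause was not tested.

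The difference from wt called 0 genes, or 1 gene each without wt 1.1A, 1.1B or 1.3B, and 0 to 1 over all pairs left out. The line difference called 0 genes without the replicate block and 0 with no filter on low values, and 9 to 36 with 1 pair left out. In wt, 1282 genes passed without 1.1A, 1753 without 1.3A and 1590 without 1.3B (1282 to 4017 over the pairs), alternatives chosen after seeing the data.

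Some log2 differences turned. Without line 1 they were 0.29 for CCZ1B, -0.059 for ATP8, -0.15 for ND6 and 0.0737 for ABCC2. Without line 2 they were 0.0138 for CBS, 0.00819 for SREBF2, 0.13 for COX3 and 0.0143 for MKI67. With 1 pair left out they ran from -0.34 to 0.06 for CCZ1B, from -0.25 to 0.13 for ABCC2, from -0.13 to 0.0014 for CBS and from -0.15 to 0.044 for COX3. Of these, COX3 without line 2 and CCZ1B without line 1 passed the test, and none did with 1 pair left out in the turned direction.

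Depth was near even over the libraries, and low genes carry the widest errors. The count tools ran on reads recovered from normalized values.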
